A study of Mus musculus with 15 samples.

Results

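Lipid droplet coat, fusion and lipase-control genes were described in mouse cardiomyocytes made to express ATF4 or DDIT3: Cidea, Cideb and Cidec of the CIDE family, Plin1, Plin2, Plin3, Plin4 and Plin5 of the perilipin family, the lipase gene Pnpla2 and its inhibitor gene G0s2. The 10 genes were chosen by symbol, and all 10 have a row among the 23337 genes of the count table. The family was proposed for description with results of the same group comparisons already known, so the differences between vector groups are given below as a description, with standard errors and without p-values. Of the 10 genes, 7 passed the filter on low counts and entered the fit across 11814 genes. Cideb, Cidec and Plin1 did not.

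RNA came from FACS-purified heart cardiomyocytes of 4-week-old Rosa-Cas9GFP mice, which had been injected on postnatal day 1 with an adeno-associated virus (AAV) used to deliver genes to heart cells. The vectors were AAV-ATF4-2A-GFP, AAV-DDIT3-2A-GFP and AAV-GFP, with 5 libraries each, called ATF4, DDIT3 and GFP libraries below. Every group thus carried both the Cas9 and GFP alleles of the host and a GFP-encoding vector. ATF4 drives the transcriptional arm of the integrated stress response, and DDIT3, or CHOP, is a transcription factor induced when the endoplasmic reticulum is under stress. The promoter that drove the vectors is not given in the sources used here.

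Lipid droplets store triglyceride and sterol esters under a single layer of phospholipid coated with proteins. Perilipins cover the surface and control the access of lipases, CIDE proteins pass lipid between touching droplets so that one grows, and adipose triglyceride lipase, the product of Pnpla2, starts the breakdown of triglyceride while the G0s2 protein inhibits it. In the heart, Plin5 links droplets to mitochondria and Plin2 is the broadly expressed coat protein that accompanies fat storage, whereas Plin1 and Cidec belong mainly to adipocytes.

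The 250 bases upstream of the RefSeq start site are shown for the genes with the largest differences after ATF4, G0s2 and Plin2, and for the adipocyte coat gene Plin1, which was close to silent in these libraries. They are read 5′ to 3′ on the strand of the gene, which is the minus strand for all 3, at chr1:193273189-193273438 for G0s2, chr4:86670060-86670309 for Plin2 and chr7:79732777-79733026 for Plin1 (RefSeq, GRCm38.p6). Capitals mark matches to any of 3 motifs searched on both strands.
G0s2: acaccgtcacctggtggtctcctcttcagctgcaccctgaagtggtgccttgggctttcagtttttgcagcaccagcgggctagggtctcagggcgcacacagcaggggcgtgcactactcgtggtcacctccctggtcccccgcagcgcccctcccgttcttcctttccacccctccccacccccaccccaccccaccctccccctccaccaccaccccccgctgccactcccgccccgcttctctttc
Plin2: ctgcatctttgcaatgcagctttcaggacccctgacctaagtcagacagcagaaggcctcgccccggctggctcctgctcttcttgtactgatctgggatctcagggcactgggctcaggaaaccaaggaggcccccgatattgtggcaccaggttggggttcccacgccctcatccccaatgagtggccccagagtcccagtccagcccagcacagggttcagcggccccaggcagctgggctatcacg
Plin1: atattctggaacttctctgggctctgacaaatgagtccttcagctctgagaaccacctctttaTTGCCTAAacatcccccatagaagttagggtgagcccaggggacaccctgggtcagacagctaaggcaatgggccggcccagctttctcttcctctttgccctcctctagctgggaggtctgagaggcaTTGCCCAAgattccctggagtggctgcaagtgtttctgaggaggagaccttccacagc

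The motifs, with N for any base, were TGATGNAA, the composite element bound by ATF4 with a C/EBP partner, and TTGCNNAA, a C/EBP site pattern. GGTCANAGG, the core of the direct repeat bound by PPAR and RXR, was searched as well. RefSeq windows of 250 bases before to 50 after the start were searched for 9 of the 10 genes, 11 windows in all. Cidea, on chromosome 18, was left out of this search, so its promoter is not described. Matches stood in 2 of these windows. Plin1 held TTGCNNAA at -187 to -180 and at -58 to -51 relative to the start, and the second of 2 Cidec windows held it at -198 to -191. Across 32851 mouse windows of the same length, TTGCNNAA occurred in 10.8%, TGATGNAA in 3.97% and GGTCANAGG in 1.72%. The letters of the 3 motifs are thus not in the windows of G0s2 and Plin2, the genes with the largest differences after ATF4. The 2 windows with matches belong to Plin1 and Cidec, which had almost no counts. With TTGCNNAA in 10.8% of all windows and so few windows searched, nothing is read from where matches stand or are missing.

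Total counts per library were between 6217744 and 8317249. Atf4 stood at 351.3 to 537.9 CPM (counts scaled to library size, TMM) in ATF4 libraries and 51.31 to 82.08 CPM in GFP libraries. In DDIT3 libraries Atf4 was at 43.65 to 101.2 CPM, overlapping GFP. Ddit3 stood at 663.9 to 1073 CPM in DDIT3 libraries and 13.43 to 16.63 CPM in GFP libraries. In ATF4 libraries Ddit3 was at 21.74 to 38.47 CPM, above every GFP library. The part of this Ddit3 difference in the ATF4 results was not tested. Vector and endogenous transcripts cannot be told apart. Cardiomyocyte markers summed to 121000 to 133400 CPM in ATF4, 153100 to 171800 CPM in DDIT3 and 151800 to 195000 CPM in GFP libraries, and 9 of the 14 were lower and 0 higher in ATF4 than in GFP. Endothelial markers summed to 1404 to 2027 CPM in ATF4, 638 to 1009 CPM in DDIT3 and 634.7 to 1217 CPM in GFP libraries, and 12 of the 14 were higher and 0 lower in ATF4 than in GFP (edgeR, adjusted p below 0.05). These shifts accompany every ATF4 difference below, and their part in the results was not tested. In these bulk samples fewer cells of a type and less RNA per cell cannot be told apart. Same-numbered libraries of different groups deviated together. What a replicate number stands for is not stated in the labels.

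Within the GFP libraries the order of the members, set per kilobase of the deposited gene length (RPKM), was led by Pnpla2 at 208.5 ± 30.8 (SD, n = 5). Plin5 followed at 132.5 ± 26.3 RPKM, Plin3 at 112.5 ± 22.1 RPKM and G0s2 at 94.8 ± 34.1 RPKM, and neighbours among these 3 overlapped, whereas every Pnpla2 value lay above every Plin5 value. Plin2 at 37.4 ± 3.63 RPKM and Plin4 at 36.6 ± 10.8 RPKM overlapped each other and lay below all G0s2 values. Cidea was the lowest of the 7 at 28.9 ± 0.895 RPKM and overlapped Plin4.

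The order differed in the ATF4 libraries. G0s2 came first at 319.8 ± 88.9 RPKM, overlapping Pnpla2 at 201.1 ± 42.5 RPKM. Below them stood Plin5 at 101.5 ± 23.0 RPKM, Plin3 at 89.8 ± 23.1 RPKM, Plin2 at 61.4 ± 4.32 RPKM, Cidea at 39.1 ± 3.48 RPKM and Plin4 at 27.9 ± 13.6 RPKM. Plin2 and Cidea each kept clear of their upper neighbour, while Plin5 overlapped Plin3 and Cidea overlapped Plin4. In the DDIT3 libraries the order began as in GFP, with Pnpla2 at 196.2 ± 42.8, Plin5 at 135.3 ± 14.6, Plin3 at 133.7 ± 29.1 and G0s2 at 90.1 ± 36.4 RPKM. Cidea then stood at 48.7 ± 6.88 RPKM, Plin4 at 45.2 ± 12.4 RPKM and Plin2 at 36.2 ± 2.08 RPKM, each overlapping the next.

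**Figure D1:**
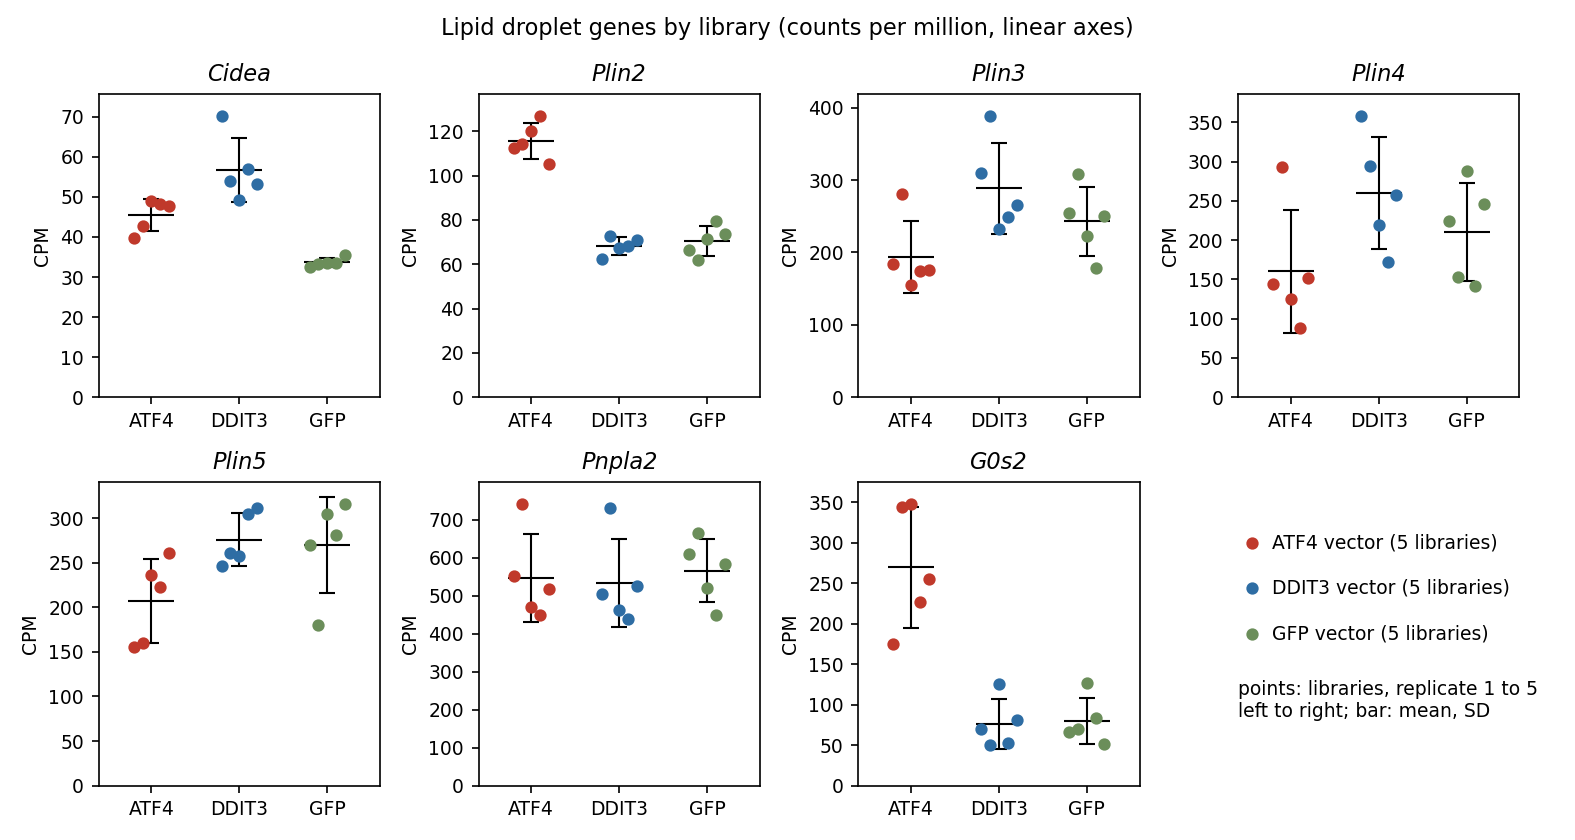
CPM (linear vertical axes from 0, scaled by TMM factors) of the 7 tested members in each library of the ATF4, DDIT3 and GFP groups; points are libraries with replicates 1 to 5 from left to right, and bars give the mean and SD (n = 5). G0s2 and Plin2 stand above both other groups in every ATF4 library, and Cidea is lowest in GFP.

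CIDE proteins were represented almost wholly by Cidea, the member that promotes droplet growth in brown fat. Cidea read 39.71, 42.81, 49.09, 48.26 and 47.62 CPM in ATF4 libraries 1 to 5, 70.21, 53.96, 49.34, 56.87 and 53.22 CPM in DDIT3 libraries, and 32.59, 33.36, 33.39, 33.58 and 35.4 CPM in GFP libraries. All ATF4 libraries were above all GFP libraries, and all DDIT3 libraries were above all ATF4 libraries, so that none of the 3 groups overlapped. The log2 fold change was 0.43 ± 0.10 (SE) in ATF4 against GFP and 0.75 ± 0.10 in DDIT3 against GFP. ATF4 against DDIT3 gave -0.32 ± 0.10. The highest DDIT3 library and the lowest ATF4 library were both replicate 1, and the last difference was -0.23 without DDIT3 replicate 1 and -0.27 without ATF4 replicate 1, each then no longer called by the fit. Cidea values lay closest together in the GFP group, with a coefficient of variation of 3.10%, against 8.91% in ATF4 and 14.1% in DDIT3. At 218 to 256 counts per GFP library counting error alone gives a larger spread, so this closeness is not read as low variation.

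Cideb, the liver-type CIDE gene that takes part in lipoprotein lipidation, had 3 to 8 counts per ATF4 library, 4 to 9 per DDIT3 library and 2 to 7 per GFP library, and the groups overlapped. In the GENCODE annotation of GRCm38, 76.3% of its exonic bases are also exonic in Nop9 on the opposite strand. Reads of a kit that does not mark strand cannot be assigned between these genes, so the few Cideb counts are uncertain. Cidec, the fat-cell CIDE gene of large droplets, had 1 count in the ATF4 libraries together, 5 counts in DDIT3 (2 in replicate 1 and 3 in replicate 2) and 0 in GFP, where 3 counts over the group would be 0.0843 CPM. Cidea made up 98.8 ± 0.783% of the summed per-kilobase CIDE level in ATF4, 98.4 ± 0.632% in DDIT3 and 98.1 ± 0.922% in GFP (SD, n = 5 each). That sum was 39.6 ± 3.40 RPKM in ATF4, 49.5 ± 6.76 RPKM in DDIT3 and 29.5 ± 1.15 RPKM in GFP.

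Among the perilipins, Plin2 (chr4:86648386-86670060, minus strand, GRCm38) was higher after ATF4. Its values were 112.5, 114.1, 120.1, 126.9 and 105.3 CPM in ATF4 libraries, 62.34, 72.69, 67.31, 68.32 and 70.73 CPM in DDIT3 libraries, and 66.39, 61.77, 71.38, 79.66 and 73.65 CPM in GFP libraries. Every ATF4 library stood above every library of the other groups, and DDIT3 and GFP overlapped. The log2 fold change was 0.71 ± 0.09 in ATF4 against GFP, or 1.64-fold, and 0.76 ± 0.09 in ATF4 against DDIT3. DDIT3 against GFP gave -0.05 ± 0.09.

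Plin5, the perilipin of oxidative tissues that joins droplets to mitochondria, read 155.1, 160.5, 236, 222.4 and 260.6 CPM in ATF4 libraries. DDIT3 libraries held 246.2, 260.5, 257.2, 304.2 and 311.3 CPM, and GFP libraries 269.7, 179.8, 304.7, 281.1 and 315.3 CPM. The 2 lowest values were ATF4 replicates 1 and 2, and all groups overlapped. Its log2 fold change was -0.38 ± 0.16 for ATF4 and 0.03 ± 0.16 for DDIT3, each against GFP, and -0.42 ± 0.16 in ATF4 against DDIT3, none of them called. With the replicate number as a block, the last became -0.44 ± 0.10 and ATF4 against GFP became -0.39 ± 0.10, both called. ATF4 against GFP was called without ATF4 replicate 5, at -0.48, and without GFP replicate 2, at -0.50, and ATF4 against DDIT3 without ATF4 replicate 3, at -0.47, ATF4 replicate 5, at -0.51, or GFP replicate 2, at -0.42.

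Plin3, a perilipin found in the cytosol that binds young droplets, had 183.7, 281, 154.5, 173.7 and 175.9 CPM in ATF4 libraries. In DDIT3 libraries it had 309.6, 388.5, 231.7, 248.4 and 265 CPM, and in GFP libraries 254.2, 308.9, 222.1, 178.8 and 250.2 CPM. Replicate 2 was the highest of each group, and the ATF4 values overlapped those of both other groups. The log2 fold change was -0.58 ± 0.18 in ATF4 against DDIT3, which was called, and -0.33 ± 0.18 in ATF4 against GFP and 0.25 ± 0.18 in DDIT3 against GFP, which were not. With the replicate number as a block, Plin3 was at -0.34 ± 0.08 in ATF4 against GFP and -0.58 ± 0.08 in ATF4 against DDIT3, both called. In the fit without the block the calls depended on replicate 2. Without DDIT3 replicate 2 the value against DDIT3 was -0.45 and not called, and without ATF4 replicate 2 the value against GFP was -0.50 and called.

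Plin4, a large perilipin of fat and muscle that coats small droplets, had coefficients of variation of 48.9% in ATF4, 27.3% in DDIT3 and 29.6% in GFP. That was the highest of the 7 in ATF4, while G0s2, at 40.4% in DDIT3 and 35.99% in GFP, varied more in the other groups. It stood at 143.5, 293.5, 125.1, 87.57 and 152.1 CPM in ATF4 libraries, 358.1, 294.9, 219.2, 172.2 and 256.9 CPM in DDIT3 libraries, and 224.3, 152.9, 287.5, 141 and 246.4 CPM in GFP libraries. All groups overlapped, and the ATF4 group held both the lowest value and 1 among the highest. The log2 fold change was -0.39 ± 0.29 for ATF4 and 0.31 ± 0.29 for DDIT3, each against GFP, and -0.70 ± 0.29 in ATF4 against DDIT3, none called. The block by replicate number gave -0.74 ± 0.25 for the last, which was called. Without ATF4 replicate 2 the differences were -0.73 against GFP and -1.04 against DDIT3, both called, and without DDIT3 replicate 4 ATF4 against DDIT3 was -0.82 and called.

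Plin1, the coat protein of fat-cell droplets, had 1 count in DDIT3 replicate 1 and 0 in all ATF4 and GFP libraries, where 3 counts over the group would be 0.0814 CPM in ATF4 and 0.0843 CPM in GFP. Several fat-cell transcripts were close to absent. Of 18 adipocyte markers, 10 were at or below 1 CPM in every library, and Adipoq, Retn, Lep, Adrb3 and Ucp1 had 5, 2, 1, 5 and 3 counts in all 15 libraries together. Of the 18, 7 passed the filter on low counts. Among these, Lipe, Zfp516, Thrsp and Pparg had means of 39.18, 14.64, 10.35 and 8.408 CPM in GFP libraries. The 7 had a median log2 fold change of 0.49 in ATF4 against GFP (0.02 over all genes tested). The marker sum was 360.7 to 555.9 CPM in ATF4, 186.5 to 319.3 CPM in DDIT3 and 176.7 to 310.4 CPM in GFP. Most of it came from Fabp4, a fatty acid binding protein that endothelial cells also express, which was the only marker of the list called in ATF4 against GFP (log2 fold change 0.94 ± 0.21, adjusted p = 0.00229 in edgeR's quasi-likelihood test).

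The lipase gene and the gene of its inhibitor differed unequally between groups. Pnpla2 (chr7:141455198-141460743, plus strand), encoding the lipase, had 551.8, 740.6, 471.5, 450.3 and 517.1 CPM in ATF4 libraries, 504.7, 731.8, 463.6, 438.9 and 526.8 CPM in DDIT3 libraries, and 611.2, 665.9, 520.9, 449.1 and 585.1 CPM in GFP libraries. Replicate 2 was the highest and replicate 4 the lowest of each group, and the groups overlapped over nearly their whole range. The log2 fold change was -0.05 ± 0.16 for ATF4 and -0.09 ± 0.16 for DDIT3, each against GFP, and 0.03 ± 0.16 in ATF4 against DDIT3. None was called.

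G0s2 (chr1:193272161-193273217, minus strand), encoding the inhibitor of that lipase, had 175.3, 343.8, 347.1, 226.4 and 255.4 CPM in ATF4 libraries. DDIT3 libraries held 70.21, 50.08, 125.8, 52.44 and 81.37 CPM, and GFP libraries 66.39, 70.37, 127.1, 83.74 and 51.84 CPM. The lowest ATF4 library was above the highest of the other groups, and DDIT3 and GFP overlapped over nearly their whole range. This was the largest difference among the members, with a log2 fold change of 1.76 ± 0.28 in ATF4 against GFP, or 3.37-fold, and 1.83 ± 0.28 in ATF4 against DDIT3. DDIT3 against GFP gave -0.07 ± 0.27. By size of change it ranked 395 of the 11814 genes tested in ATF4 against GFP, where Plin2 ranked 2159 and Cidea 4420. In DDIT3 against GFP, Cidea ranked 451.

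**Figure D2:**
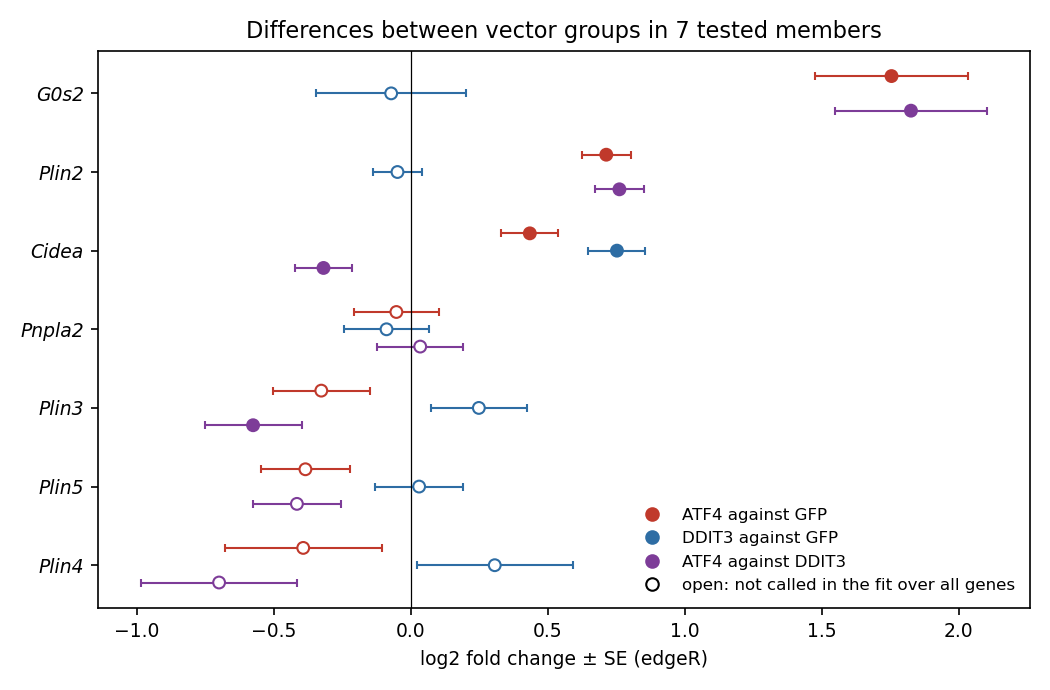
Log2 fold change ± SE (edgeR, horizontal axis) of 7 members for ATF4 and DDIT3 against GFP and for ATF4 against DDIT3; filled points were called at an adjusted p below 0.05 in the fit over 11814 genes, open ones were not. G0s2 and Plin2 lie to the right in both ATF4 comparisons, and Cidea to the right of 0 against GFP for both vectors.

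The fit over all genes called 3 of the 7 tested members in ATF4 against GFP, where 32.2% of all genes were called: G0s2, Plin2 and Cidea, all higher. These were also the 3 members whose groups did not overlap, as was so for 21.4% of all genes. In DDIT3 against GFP it called 1, Cidea, beside 0.863% of all genes, and Cidea was also the only member without overlap, beside 2.86% of all genes. In ATF4 against DDIT3 it called 4, beside 33.8%: G0s2 and Plin2 higher, Cidea and Plin3 lower. Of these, G0s2, Plin2 and Cidea did not overlap, beside 22.6% of all genes. The members were chosen with these contrasts known, so nothing is read from the counts, and the comparisons share libraries. Median log2 fold changes of the 7 were -0.05 for ATF4 against GFP (0.02 over all genes tested), 0.03 for DDIT3 against GFP (0 over all genes) and -0.32 for ATF4 against DDIT3 (0 over all genes). With the replicate number as a block, DDIT3 against GFP called 322 genes in place of 102, and Cidea was still the only member among them. The authors' deposited tables called the same members, 3 for ATF4 and 1 for DDIT3, and their log2 fold changes for the 7 differed from these by at most 0.023.

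The balance between members was set out as ratios of per-kilobase levels within each library. G0s2 over Pnpla2, inhibitor message to lipase message, was 1.62 ± 0.484 in ATF4 (1.02 to 2.37), 0.485 ± 0.242 in DDIT3 (0.221 to 0.875) and 0.473 ± 0.214 in GFP (0.286 to 0.787). All ATF4 libraries exceeded 1 and no other library did. Plin2 over Plin5 was 0.631 ± 0.147 in ATF4, 0.269 ± 0.0251 in DDIT3 and 0.290 ± 0.0505 in GFP, and the lowest ATF4 library at 0.436 was above the highest GFP library at 0.371. Cidea over Plin2 was 0.639 ± 0.0619 in ATF4, 1.36 ± 0.270 in DDIT3 and 0.779 ± 0.0693 in GFP. DDIT3 libraries, at 1.19 and above, were thus clear of the other groups, which reached 0.876.

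Plin2 made up 22.1 ± 2.84% of the summed per-kilobase perilipin level in ATF4, against 10.4 ± 0.968% in DDIT3 and 11.8 ± 1.62% in GFP. Plin5 held 36.4 ± 8.29% in ATF4, 38.9 ± 5.75% in DDIT3 and 41.4 ± 6.67% in GFP, and Plin3 held 31.8 ± 5.85% in ATF4, 37.9 ± 4.73% in DDIT3 and 35.5 ± 8.19% in GFP. Plin4 held 9.74 ± 3.85% in ATF4, 12.8 ± 2.94% in DDIT3 and 11.3 ± 2.51% in GFP. The Plin2 shares of ATF4 libraries, 18.9% to 24.7%, did not overlap those of GFP libraries, 10.9% to 14.7%, whereas the shares of the other members did. The summed perilipin level was 280.5 ± 27.6 RPKM in ATF4, 350.4 ± 34.0 RPKM in DDIT3 and 318.9 ± 29.1 RPKM in GFP. These shares are description, and follow from the levels above.

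**Figure D3:**
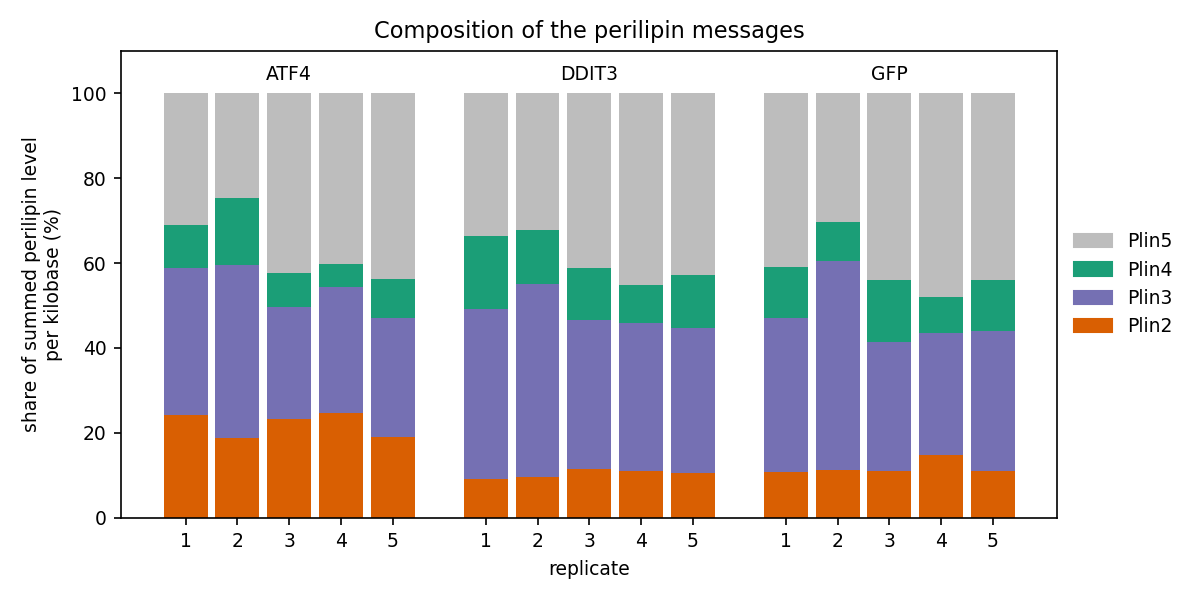
Share of Plin2, Plin3, Plin4 and Plin5 in the summed per-kilobase perilipin level (%) of each library, by vector group and replicate. The Plin2 block takes 18.9% to 24.7% in ATF4 libraries and 10.9% to 14.7% in GFP libraries.

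Variation between libraries of 1 group was shared between members in a way that followed the replicate number. Plin3 and Pnpla2 were both highest in replicate 2 of every group, G0s2 in replicate 3 of every group and Plin5 in replicate 5 of every group, while Pnpla2 and Plin4 were lowest in replicate 4 of every group. Replicate number held 92.5% of the within-group variance of Pnpla2 (log2 CPM), 88.9% of that of Plin3 and 71.1% of that of Plin5. The share was 59.6% for G0s2, 49% for Plin4, 40.4% for Plin2 and 7.81% for Cidea, beside a median of 53.6% over all genes tested. Cidea had the lowest share of the members. Its largest deviations from the group mean, 0.32 in DDIT3 and -0.19 in ATF4, were both in replicate 1 and opposite in sign, so the low share rests largely on that number.

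Deviations of Plin3 and Pnpla2 from their group means were correlated over the 15 libraries, with Pearson's r = 0.941 and Spearman's rho = 0.929 (two-sided permutation p = 7e-05 and 2e-05, Benjamini-Hochberg adjusted p = 0.00147 and 0.00042 over the 21 pairs of members; the analysis was chosen after the values were seen). No other pair passed the adjustment, where the next lowest adjusted p was 0.216 for r and 0.173 for rho. Without the 2 libraries farthest from the median of Plin3, r was 0.863, and without the 3 libraries numbered 2 it was 0.809. Same-numbered libraries are not independent, and with the mean of each replicate number removed as well, r was 0.528 (permutation p = 0.0881), so that the relation no longer passed the threshold within numbers. Among the other 11812 genes tested, 3 had a correlation with Pnpla2 at least as high as that of Plin3, and 1458 (12.3%) did once the replicate-number means were removed. Plin4, Plin5 and Plin3 lie on chromosome 17 in 1 orientation, Plin4 and Plin5 with 1797 bases between them, and deviations of these 2 neighbours had r = -0.145 and rho = -0.036 (permutation p = 0.667 and 0.912, adjusted p = 0.868 and 0.912).

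**Figure D4:**
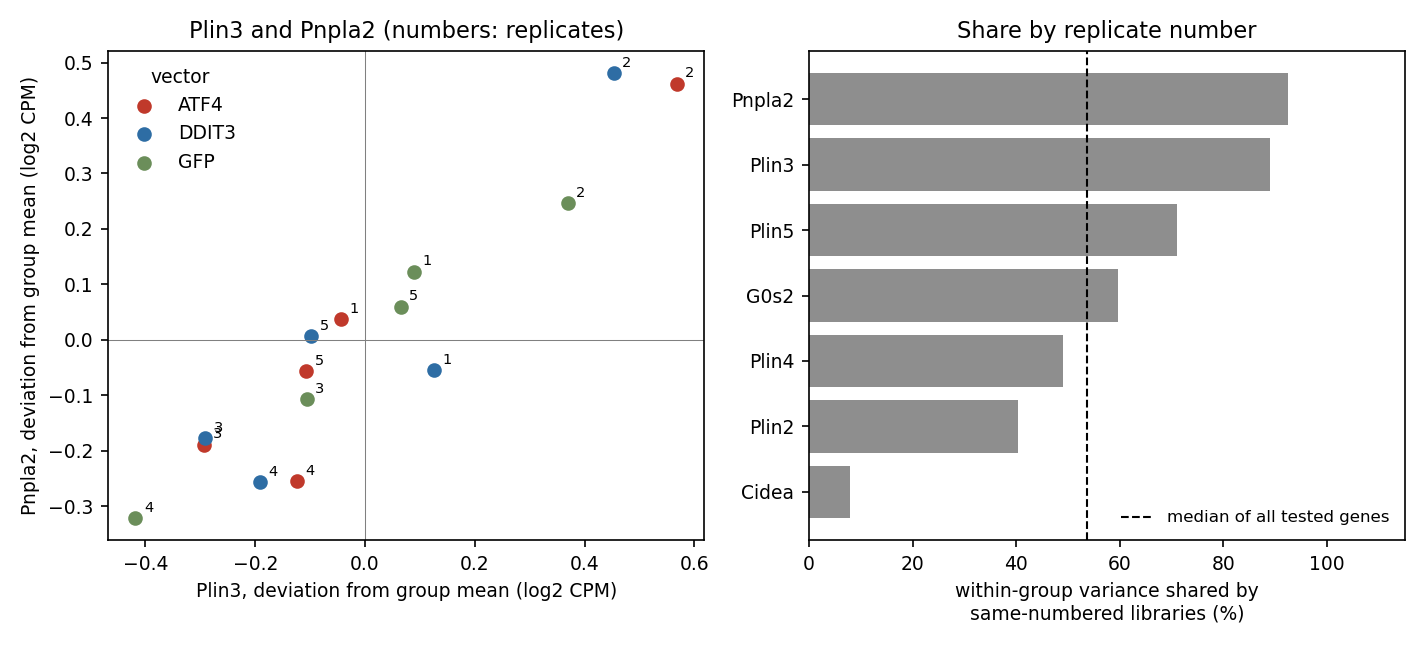
Left, deviation of Plin3 (horizontal) and Pnpla2 (vertical) from the group mean in log2 CPM, 1 point per library, coloured by vector and marked with its replicate number. Right, percent of each member's within-group variance that same-numbered libraries share, with the median of all tested genes (53.6%) as a dashed line; the libraries numbered 2 lie at the upper right, and Pnpla2 and Plin3 have the longest bars.

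The genes whose log2 CPM followed G0s2 most closely over the 15 libraries were Slc22a4, an organic cation transporter (r = 0.942), Usp36, a deubiquitinase of the nucleolus (r = 0.94), Pcyox1l (r = 0.935), Vasp, an actin regulator (r = 0.931), and Eif1ad (r = 0.926). Their log2 fold changes in ATF4 against GFP were between 1.03 and 2.41, and in DDIT3 against GFP between -0.32 and 0.17. The points share the 3 vector groups, so the likeness is a description of these libraries.

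Genes that make the stored lipid were mixed after ATF4. Of 22 tested genes of triglyceride and sterol ester synthesis and droplet formation, 3 were higher and 6 lower in ATF4 than in GFP, with a median log2 fold change of -0.08. Soat2, which esterifies cholesterol rather than making triglyceride, had 1662 counts over the ATF4 libraries and 0 in GFP, at least 535-fold higher if GFP is set to 3 counts over its group. Bscl2, encoding seipin of droplet assembly, rose by 0.63 ± 0.12 on the log2 scale (adjusted p = 0.000427, edgeR). Acsl6, a long-chain acyl-CoA synthetase, changed by -2.12 ± 0.24 (adjusted p = 2.46e-06) and Fitm1, a droplet-forming protein of muscle, by -1.22 ± 0.18 (adjusted p = 5.37e-05). The triglyceride-forming acyltransferases were not called, with 0.18 ± 0.16 for Dgat1 and -0.10 ± 0.13 for Dgat2.

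Lipases and their partners outside the members gave 2 higher and 2 lower of 11 tested in ATF4 against GFP, with a median of 0.08. Ces1d, a triglyceride hydrolase of the carboxylesterase cluster, changed by -2.13 ± 0.25 (edgeR adjusted p = 4.64e-06), and reads may be shared with its near copies. Pnpla3, a relative of Pnpla2, changed by -1.86 ± 0.28 (adjusted p = 6.23e-05). The monoacylglycerol lipases Abhd6 and Mgll rose by 0.81 ± 0.16 and 0.50 ± 0.16 (adjusted p = 0.000786 and 0.0232). Abhd5, the activator of the Pnpla2 lipase, was at -0.06 ± 0.12, and Lipe, the hormone-sensitive lipase, at 0.49 ± 0.22, neither called.

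Other droplet-associated proteins had 6 higher and 1 lower of 22 tested in ATF4 against GFP, with a median of 0.20. Spg20, encoding spartin of droplet turnover, rose by 1.74 ± 0.10 (edgeR adjusted p = 2.8e-10), Tmem43 by 1.15 ± 0.10 (adjusted p = 1.41e-07), and Aup1, an ubiquitin-ligase adaptor on droplets, by 0.57 ± 0.11 (adjusted p = 0.000895). Mettl7b had 152 counts over the ATF4 libraries and 0 in GFP and DDIT3, at least 48-fold higher than GFP by the same bound. Targets of PPAR-alpha, the lipid-sensing nuclear receptor that also acts on several perilipin genes, had 1 higher and 7 lower of 23 tested, with a median of -0.13. The lower genes were mainly of fatty acid oxidation, among them Acaa2 at -0.89 ± 0.11 (adjusted p = 9e-06), Acadm at -0.74 ± 0.09 (adjusted p = 8.36e-06) and Acadvl at -0.60 ± 0.10 (adjusted p = 0.000237), whereas Cyp4b1, a fatty acid hydroxylase, rose by 1.41 ± 0.14 (adjusted p = 5.11e-07). Of all genes 32.2% were called in this comparison.

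DDIT3 against GFP gave few calls in these lists, beside 0.863% of all genes called. Acsl6 rose by 1.01 ± 0.20 (edgeR adjusted p = 0.0197), opposite in sign to ATF4, and Ces1d changed by -1.34 ± 0.24 (adjusted p = 0.0107) and Tmem43 by 0.49 ± 0.10 (adjusted p = 0.0326), with the sign they had in ATF4. Of 23 PPAR-alpha targets, edgeR called 0 at the adjusted threshold and 3 had an unadjusted p below 0.05, and DESeq2 also called 0. With the replicate number as a block edgeR called 1, Cyp4b1, at -0.46 ± 0.10 (adjusted p = 0.023). The list counts of triglyceride synthesis and of other droplet proteins were 0 when certain single libraries were left out. Acsl6 was lost without DDIT3 replicate 1, 2 or 3 or GFP replicate 3, and Tmem43 without any 1 of the DDIT3 replicates or GFP replicate 2, 3, 4 or 5. In ATF4 against DDIT3, 4 genes of triglyceride synthesis were higher and 5 lower of 22, 3 and 2 of 11 for lipolysis, 8 and 1 of 22 for other droplet proteins, and 1 and 6 of 23 for PPAR-alpha targets, with medians of -0.16, 0, 0.24 and -0.31. Of all genes 33.8% were called in that comparison, and the median over all genes tested was 0. Acsl6 stood at -3.13 ± 0.23 there (edgeR adjusted p = 8.38e-09).

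**Figure D5:**
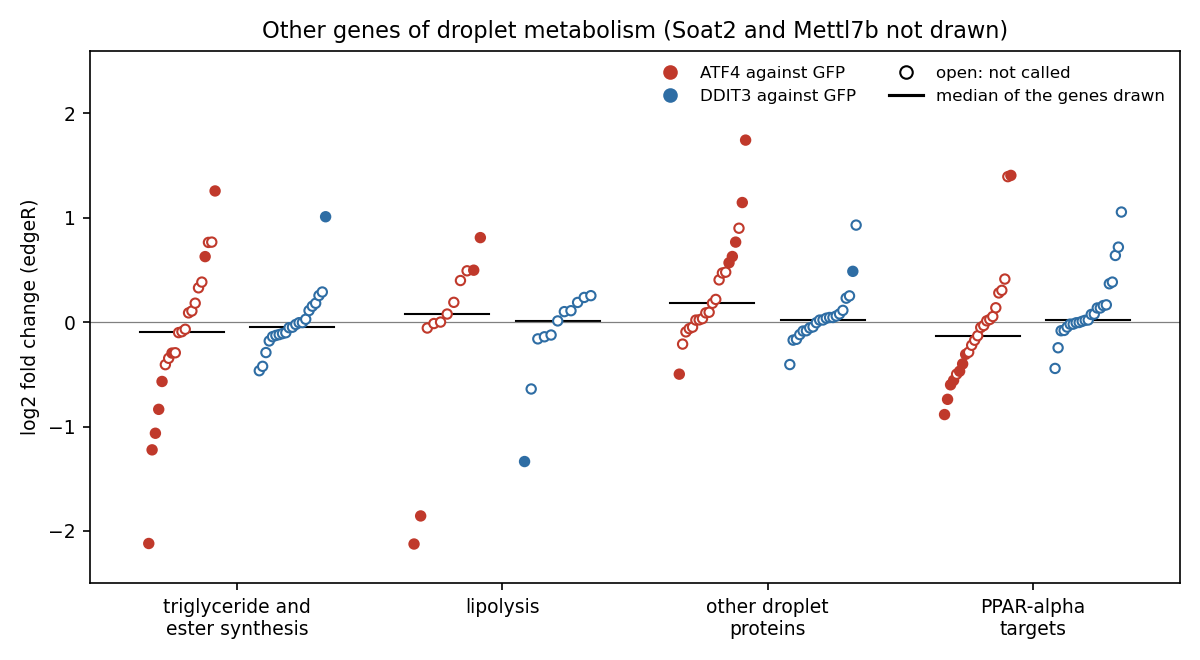
Log2 fold changes (edgeR, vertical axis) of the genes of 4 lists for the ATF4 and the DDIT3 vector against GFP, 1 point per gene, filled where called at an adjusted p below 0.05, with the median of the genes drawn as a line; Soat2 and Mettl7b, with 0 counts in GFP, are left out. ATF4 points reach well beyond DDIT3 points in both directions.

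Marker lists of other cells remain to be set beside these results. Macrophage markers summed to 33.42 to 51.43 CPM in ATF4, 16.03 to 26.66 CPM in DDIT3 and 21.34 to 29.64 CPM in GFP. In ATF4 against GFP 1 of 8 tested was called, Lgals3, with means of 16.68 CPM in ATF4 and 0.3541 CPM in GFP. The 8 had a median log2 fold change of -0.01, so the higher ATF4 sum was not shared by the list as a whole. Fibroblast markers summed to 450.1 to 1005 CPM in ATF4, 321.5 to 618.3 CPM in DDIT3 and 397.9 to 882.8 CPM in GFP, with 1 of 11 higher (Postn) and 1 lower (Fbln1) in ATF4 than in GFP. Their part in the member values was not tested.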

How the data were processed

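Whole-number counts of reads per gene, as the authors deposited them, were the base of every result; STAR, featureCounts, DESeq2, DESeq and the mm10 build are named in the submitters' processing notes, which carry no versions. SMART-Seq2 is named in every library's label except that of GFP replicate 5, which has SMART-Seq3. The gene length column, as deposited, gave RPKM. Per the file headers, the authors' deposited tables hold a mean signal, log2 fold changes with standard errors, a test score and p-values; their log2 fold changes and calls are quoted only by name.

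Groups and replicate numbers came from the titles. By transcripts each group held male and female libraries, so the libraries of a group did not all come from a single animal. Nothing says that each came from a separate animal. A p-value thus covers only the spread of these samples, which may be technical in part. Within groups, chi-square per degree of freedom over 30 library pairs was 8.60 to 50.4 (genes with at least 20 counts), so none was a copy. Counts were fitted with edgeR 4.0.16 in R 4.3.3 (quasi-likelihood, robust, TMM, filterByExpr at a minimum count of 10), all 15 libraries in 1 fit with group as the only term, Benjamini-Hochberg over 11814 genes, threshold 0.05. The filter removed 11523 genes. The script was tested on simulated data. DESeq2 1.42.0 was an alternative. CPM use TMM factors, log2 CPM a prior count of 2, and correlations 100000 permutations (smallest p 1e-05). Floors of 3 counts cover counting error only. Alternatives were other scaling, no filter, 2-group fits, a replicate block, a sex term (11 libraries male and 4 female by transcripts) and each library left out.

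The members and gene lists were chosen with earlier results of these data known. The text names all members, Atf4 and Ddit3, up to 4 called genes with the lowest p per pathway list in ATF4 against GFP and up to 2 in DDIT3 against GFP, defining markers, and the 5 genes closest to G0s2 (provisional symbols passed over). Dgat1, Dgat2, Abhd5, Lipe, Fabp4, Zfp516, Thrsp, Pparg, Lgals3, Postn, Fbln1 and Acsl6 in ATF4 against DDIT3 were named outside this rule, after their values were seen. Lists overlap, with Lipe in both the lipolysis and the adipocyte list. Pairing by replicate number was checked through the correlation, across genes, of deviations from group means in libraries of 1 number. All 5 exceeded 0.1 for DDIT3 and GFP (0.205 to 0.511) and for ATF4 and DDIT3 (0.135 to 0.497). For ATF4 and GFP 4 of 5 did (0.078 to 0.386). Numbers that pair both groups with DDIT3 also pair ATF4 with GFP. The main fit has no term for the number, and the replicate block is given as an alternative. Promoters came from RefSeq (GRCm38.p6), gene positions from GENCODE (GRCm38).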

Additional observations from a re-analysis of the deposited data

Results flagged for a closer look

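Plin3 in ATF4 replicate 2, at 281.0 CPM, stood apart from the other ATF4 libraries, which lay between 154.5 and 183.7 CPM. Its gap to the nearest, divided by the range of the group, was 0.769, above Dixon's critical value of 0.71 for 5 samples. It was the only such sample among 21 groups examined (7 members in 3 vector groups), and chance alone gives about 1 in 20. Replicate 2 was also the highest for Plin3 in DDIT3, at 388.5 CPM, and in GFP, at 308.9 CPM. By transcripts, replicate 2 was the only female library in ATF4 and in DDIT3, and was male in GFP.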

How the results depend on the processing

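Across 21 alternatives, no called difference changed sign. All 441 recomputed log2 fold changes of the 7 members moved by less than 1 SD of the gene's log2 CPM between libraries within groups. That margin is wide, and leaving out 1 library, as most alternatives did, can hardly exceed it, so the count does not measure stability. Plin4 in ATF4 against GFP moved from -0.39 to -0.73 within it. The calls of G0s2 and Plin2 in both ATF4 comparisons, and of Cidea against GFP for both vectors, held in all 21. Cidea in ATF4 against DDIT3 was not called when 2 groups alone were fitted, nor without replicate 1 of either group. Members called in ATF4 against GFP were 3, with 3 to 5 when 1 library was left out. With the replicate block, ATF4 against GFP called 5097 genes in place of 3801 and 5 members, Plin3 and Plin5 being added at -0.34 and -0.39. Same-numbered ATF4 and GFP libraries had 4 of 5 correlations above 0.1, the lowest 0.078. Of these libraries 8 of 10 were closest to their own number, as was also so for ATF4 and DDIT3. In DDIT3 against GFP, all genes called were 322 with the replicate block, 228 with DESeq2 and 55 to 146 with 1 library left out, in place of 102. The block called 1 PPAR-alpha target there in place of 0. DESeq2 called Plin4 and Plin5 in ATF4 against DDIT3, the sex term Plin4, and the 2-group fit Plin5. In ATF4 against DDIT3 the same replicate block, fitted on all 15 libraries, added Plin4 and Plin5, as given above, and changed no other member call. With 1 library left out, genes called in DDIT3 against GFP were 0 to 1 for triglyceride synthesis and 0 to 1 for other droplet proteins, and lipolysis genes called in ATF4 against DDIT3 were 3 to 5, with 3 without DDIT3 replicate 4. On CPM in place of per-kilobase levels, Plin2 was 17.44% of the perilipin sum in ATF4, 7.731% in DDIT3 and 9.003% in GFP. The correlation of Plin3 and Pnpla2 was 0.528 once replicate-number means were removed, in place of 0.941. The cause was not tested for these changes. Depth limits Cideb, Cidec and Plin1, for which differences were not detectable.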
